A study of Mus musculus with 23 samples.

Results

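The 9 genes described here encode receptor chains for interleukins 2, 15, 21, 12 and 18: Il2ra, Il2rb, Il2rg, Il15ra, Il21r, Il12rb1, Il12rb2, Il18r1 and Il18rap. They are taken by symbol from 35645 genes in the RNA table. No measured value enters that rule, but the set was proposed with earlier results of these data known. In the chromatin accessibility table, 38 of 51412 peaks carried 1 of these gene names. All 9 genes and all 38 peaks passed the filter on low counts.

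RNA was sequenced in bulk from 4 populations sorted from the liver of 6 mice. NK cells (4 libraries) carried the S1pr5eGFP reporter. The ILC1s were divided by granzyme C: DP cells (GzmC+GzmcFM+, 4 libraries) had current expression, FMSP cells (GzmC-GzmcFM+, 4 libraries) were fate mapped but no longer expressed it, and DN cells (GzmC-GzmcFM-, 3 libraries) had neither mark. ATAC-seq, which counts transposase cuts in open chromatin, was done on 50000 sorted cells per library, with 2 libraries each of liver NK cells, spleen NK cells, liver ILC1s and salivary gland ILC1s. For these the sample labels name the reporter gates (S1pr5eGFP+ or GzmC+GzmcFM+), whereas the design text names surface gates (CD49a and CD49b), and which was used could not be settled. Strain, age and the construct behind the fate map are not given in the sources used here.

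The receptors of interleukin 2 and interleukin 15 share the signalling chains encoded by Il2rb and Il2rg, and each adds a private chain, Il2ra or Il15ra, that raises affinity or presents the cytokine. Interleukin 21 uses its own chain, Il21r, with the common chain from Il2rg, and these receptors signal through JAK1, JAK3 and STAT factors. The interleukin 12 receptor pairs Il12rb1, which is shared with the interleukin 23 receptor, with Il12rb2 and acts through TYK2, JAK2 and STAT4, while Il18r1 and Il18rap form the interleukin 18 receptor and act through MYD88. In NK cells and ILC1s, interleukin 15 is known for survival, and interleukins 12 and 18 for interferon-gamma production.

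Promoter sequence is shown for 4 of the 9 genes, Il2ra, Il21r, Il12rb2 and Il18r1. Of the 9 genes, 7 had an entry in the RefSeq promoter table (GRCm38.p6, the mm10 assembly). The entries of Il2rg, Il15ra and Il18rap are not shown. The sequences run 5′ to 3′ on the gene's strand, within the 250 bases before the annotated start, and leave out bases inside the gene's annotated span. The 5 motifs searched on both strands were TTCNNNGAA (STAT), GGAAGT (ETS), TGTGGT (RUNX), GGTGTGA (T-box) and TGANTCA (AP-1). Capitals mark every match. The stretches are chr2:11642542-11642791 on the plus strand for Il2ra, chr7:125603179-125603251 plus for Il21r, chr6:67376294-67376438 minus for Il12rb2 and chr1:40465302-40465551 plus for Il18r1.
Il2ra: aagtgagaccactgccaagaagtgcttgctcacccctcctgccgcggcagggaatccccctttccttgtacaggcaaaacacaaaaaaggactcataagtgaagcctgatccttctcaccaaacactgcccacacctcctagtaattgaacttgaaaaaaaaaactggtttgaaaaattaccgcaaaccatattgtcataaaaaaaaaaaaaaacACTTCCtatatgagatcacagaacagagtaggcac
Il21r: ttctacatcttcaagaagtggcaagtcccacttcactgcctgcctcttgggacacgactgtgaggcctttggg
Il12rb2: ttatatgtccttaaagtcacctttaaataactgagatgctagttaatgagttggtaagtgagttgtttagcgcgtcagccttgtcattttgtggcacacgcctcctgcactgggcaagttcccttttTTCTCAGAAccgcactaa
Il18r1: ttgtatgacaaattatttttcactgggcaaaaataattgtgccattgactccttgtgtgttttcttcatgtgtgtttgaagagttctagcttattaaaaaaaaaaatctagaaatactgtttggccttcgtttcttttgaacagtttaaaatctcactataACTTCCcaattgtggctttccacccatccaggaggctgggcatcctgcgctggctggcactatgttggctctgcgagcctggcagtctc

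In the 145 bases of Il12rb2, TTCTCAGAA matched the STAT motif, which was found in 4.24% of all 32851 promoter windows cut to that length. The ETS motif matched once each in Il2ra and Il18r1, as ACTTCC on the plus strand, and is held by 19.7% of all 250-base windows. The 73 bases of Il21r held none of the 5. Of the promoters not shown, Il2rg held 1 RUNX match, Il18rap 1 ETS match and Il15ra none. Over 250 bases, RUNX was found in 14.0% of windows, STAT in 7.02%, AP-1 in 6.75% and T-box in 3.33%. These are letter matches and no measure of binding. An ATAC peak covered all the bases shown for Il21r, Il12rb2 and Il18r1, and no peak overlapped those of Il2ra.

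Levels are given as CPM, counts scaled to a common library sum after TMM adjustment, in the order of mouse number: mice 1, 4, 5 and 6 for NK, 2, 4 and 6 for DN, and 3 to 6 for FMSP and DP. Differences are log2 fold changes with their standard error (SE) from edgeR's quasi-likelihood test, fitted over all genes, and a call is a Benjamini-Hochberg adjusted p below 0.05. RNA library totals lay between 51641248 and 73309063 counts. The 4 libraries of mice 1 to 3 stood apart from the 11 of mice 4 to 6 along the leading principal component (28.0% of the variance), with scores from -116 to -59.3 against 14.98 to 38.2. Values within mice 4 to 6, and from a fit with the mouse as a block, are therefore given where they change a call. Hepatocyte transcripts were high in 3 libraries (DN of mouse 2, FMSP of mice 5 and 6), and results that depend on them are named.

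Against NK cells, the mean of the 3 ILC1 populations was higher for 3 of the 9 chains (Il2ra, Il21r and Il12rb1) and lower for 2 (Il18r1 and Il18rap), by edgeR at adjusted p below 0.05. Over all genes tested, 2.9% were called higher and 3.02% lower in this comparison. When mouse was entered as a block the calls came to 4 higher and 3 lower, with Il15ra and Il12rb2 added, beside 12.7% of all genes called in either direction. Within mice 4 to 6 the split was 4 higher and 3 lower, beside 13.2% of all genes. This is not independent of the blocked fit, since none of mice 1 to 3 gave both NK and ILC1 libraries. The median log2 fold change of the 9 was 0.08, and that of all genes tested was 0.08.

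**Figure D1:**
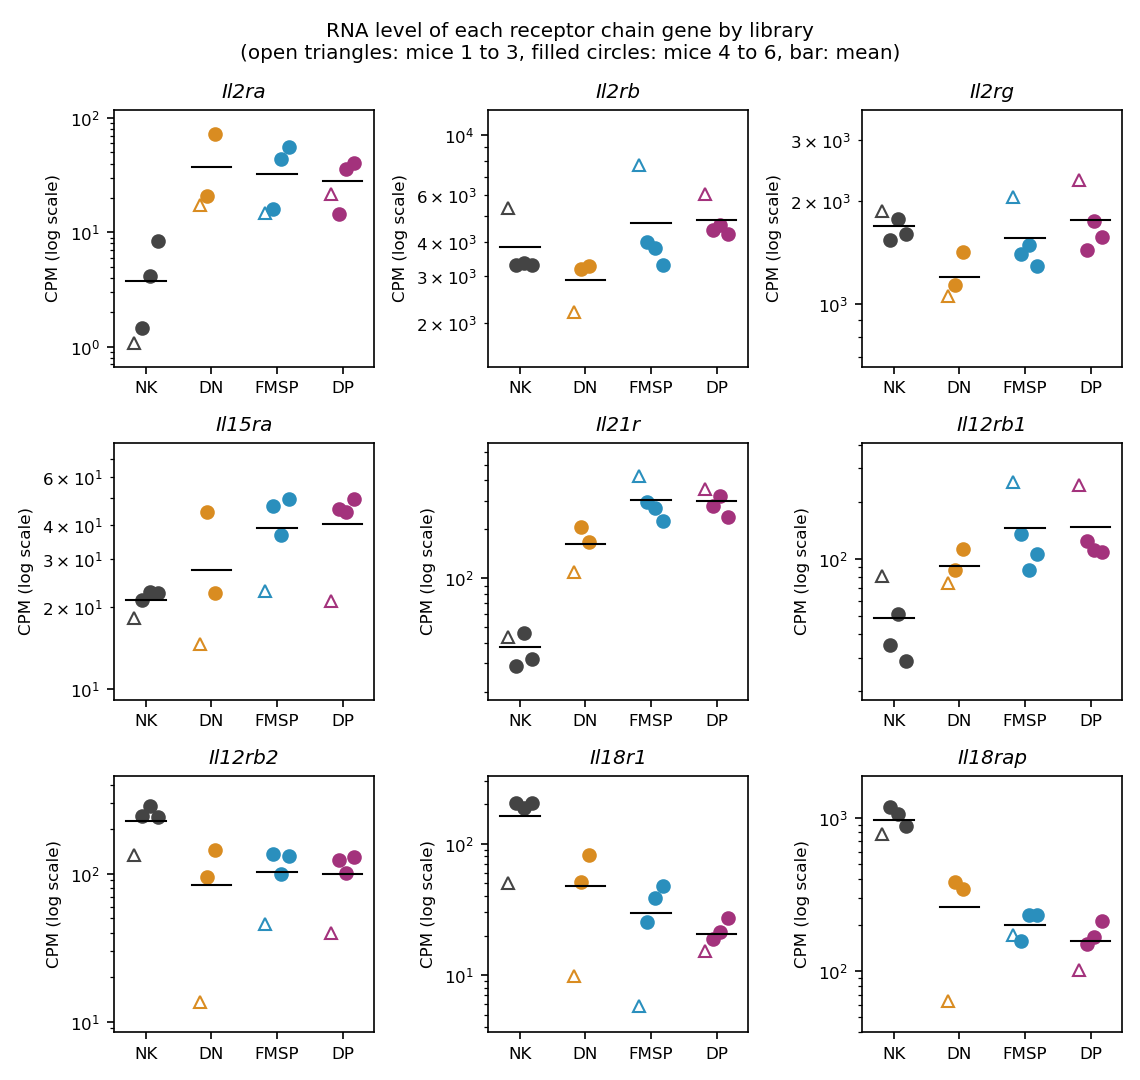
CPM (log axis) of the 9 receptor chain genes in each of 15 liver RNA libraries, by population, with the mean as a bar, open triangles for mice 1 to 3 and filled circles for mice 4 to 6. Every ILC1 library lies above every NK library for Il21r and Il2ra, and below every NK library for Il18rap.

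By population, DP cells had 3 chains higher and 2 lower than NK (background 2.51% higher and 1.58% lower), FMSP cells 3 higher and 1 lower (2.48% and 1.59%), and DN cells 2 higher and 1 lower (1.81% and 1.18%). With library totals alone, without TMM, the DN split was 2 higher and 0 lower, since Il18rap was not called (edgeR adjusted p = 0.0939). These 3 comparisons share the same NK libraries. The median log2 fold changes of the 9 chains were 0.34, 0.30 and -0.40 in DP, FMSP and DN, against 0.03, 0.11 and 0.17 for all genes.

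Il21r, the ligand-binding chain for interleukin 21, gave the smallest adjusted p of the 9 genes. NK libraries held 43.2, 28.6, 45.8 and 31.9 CPM, and DN libraries held 109, 206 and 168. FMSP libraries held 423, 296, 269.7 and 223 CPM, and DP libraries 355, 279, 319 and 237. Every ILC1 library lay above every NK library, and the DN libraries lay between NK and the fate-mapped populations without overlapping either. The ILC1 mean was 2.71 ± 0.25 higher on the log2 scale (edgeR adjusted p = 6.15e-06), with 2.99 ± 0.27 in DP, 3.02 ± 0.27 in FMSP and 2.11 ± 0.27 in DN. These 4 calls held when any 1 of the 15 libraries was left out. In mice 4 to 6, all 8 ILC1 libraries exceeded the NK library of the same mouse, by 5.25 to 10.3 times. Ratios from the same mouse share its NK library and are not independent. The step from DN to DP (0.88 ± 0.28, adjusted p = 0.353) and from DN to FMSP (0.91 ± 0.28, adjusted p = 0.555) was not called.

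Il2ra, which encodes the high-affinity interleukin 2 receptor chain CD25, was near the floor in NK cells. NK libraries held 1.07, 1.47, 4.18 and 8.37 CPM. DN libraries held 17.4, 20.7 and 73.0 CPM. FMSP libraries held 14.9, 15.9, 43.7 and 56.3 CPM, and DP libraries 21.4, 14.4, 35.9 and 40.3. The ILC1 libraries all lay above the NK libraries and overlapped each other, and mouse 6 gave the highest value in each of the 4 populations. The ILC1 mean was 3.10 ± 0.68 higher (edgeR adjusted p = 0.0107), and this call held without any 1 library (adjusted p up to 0.0444). DP was 2.89 ± 0.72 higher (adjusted p = 0.0330), FMSP 3.11 ± 0.73 (0.0231) and DN 3.29 ± 0.76 (0.0277). Each of these 3 was lost when NK of mouse 1, 4 or 5 was left out. The DP call was also lost without DP of mouse 5 or 6 (adjusted p up to 0.108), the FMSP call without FMSP of mouse 5 or 6 (up to 0.0779), and the DN call without DN of mouse 6 (up to 0.142). The FMSP call was also lost without the 3 hepatocyte-high libraries, at 2.03 and adjusted p = 0.227. In the blocked fit the adjusted p lay between 5.66e-05 and 2.07e-04 over the 4 comparisons.

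Cells that also express Il2ra, such as T cells, were checked by a list of 12 T cell markers. Their levels summed to between 123 and 260.0 CPM in NK libraries, 780.3 and 1611 in DN, 775 and 1639 in FMSP, and 639.9 and 1425 in DP, with no overlap between NK and the ILC1 groups. Cd3e, a T cell receptor complex chain, averaged 10.8 CPM in NK and 29.5 in DP, against 293 in DN and 189 in FMSP. No marker of this list was at 0 throughout a group. T cells can also express Il21r and Il7r, and B cells Il21r. The 6 B cell markers summed to between 275 and 294 CPM in NK of mice 4 to 6 against 543 to 855 in their ILC1 libraries, and to 669 in NK of mouse 1 against 746 to 1153 in ILC1 libraries of mice 2 and 3. No B cell marker was at 0 throughout a group. The part of T cell and B cell RNA in these results was not tested, and in bulk samples fewer cells of a type and less RNA per cell cannot be told apart.

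Il2rb and Il2rg, the signalling chains shared by the interleukin 2 and 15 receptors, were not called in any comparison with NK over all libraries. NK libraries held 5335, 3299.9, 3357 and 3302 CPM of Il2rb, against 2214, 3173 and 3278 in DN. FMSP libraries held 7705, 4014, 3798 and 3289 CPM, and DP libraries 6033, 4434, 4645 and 4291. DN lay below all other populations without overlap, while NK, FMSP and DP overlapped. The margin was narrow: the highest DN value was 3278 CPM, and the lowest were 3289 in FMSP and 3299.9 in NK. The lowest DN value, 2214 CPM in mouse 2, came from a hepatocyte-high library. The log2 difference from NK was 0.08 ± 0.22 for the ILC1 mean (edgeR adjusted p = 0.926) and -0.40 ± 0.29 for DN (0.561). For DN it was -0.02 in the blocked fit. Within mice 4 to 6, DP was 0.41 ± 0.08 higher than NK (adjusted p = 0.00465), a call the blocked fit did not make (0.35 ± 0.12, adjusted p = 0.112).

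Il2rg, the common cytokine receptor chain, held 1861, 1533, 1769 and 1595 CPM in NK libraries and 1051, 1134 and 1418 in DN. FMSP libraries held 2051, 1398, 1485 and 1294 CPM, and DP libraries 2288, 1433, 1742 and 1564. DN again lay below NK and DP without overlap, with 1418 CPM as the highest DN value and 1433 as the lowest in DP. The ILC1 mean differed from NK by -0.18 ± 0.16 (edgeR adjusted p = 0.664), and DN by -0.49 ± 0.21 (adjusted p = 0.268). In mice 4 to 6, Il2rg was lower than in the same animal's NK library in 8 of 8 ILC1 libraries, by ratios of 0.740 to 0.985. Ratios from the same animal share its NK library and are not independent, and no comparison was called.

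Il15ra, the private chain that binds and presents interleukin 15, was not called over all 15 libraries and was called within animals. NK libraries held 18.1, 21.2, 22.7 and 22.5 CPM, and DN libraries 14.6, 44.7 and 22.5. FMSP libraries held 22.8, 46.8, 36.6 and 49.9 CPM, and DP libraries 20.9, 45.8, 44.5 and 49.6. The low ILC1 values were those of mice 2 and 3 and of DN in mouse 6, and the other 7 libraries, at 36.6 CPM or more, lay above all NK values. The ILC1 mean was 0.73 ± 0.31 above NK (edgeR adjusted p = 0.239), 0.86 ± 0.21 in the blocked fit (adjusted p = 0.0267) and 0.89 ± 0.20 in mice 4 to 6 alone (0.0135). In the blocked fit the difference was called in DP (1.05 ± 0.24, adjusted p = 0.0215) and in FMSP (1.02 ± 0.24, 0.0250), and not in DN (0.52 ± 0.28, 0.345).

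The 2 chains of the interleukin 12 receptor went in opposite directions. Il12rb1, the shared chain, held 80.6, 35.1, 50.8 and 28.8 CPM in NK libraries and 74.4, 87.3 and 112 in DN. FMSP libraries held 255, 135, 87.2 and 106 CPM, and DP libraries 244, 124, 111 and 108. FMSP and DP lay above all NK values, and DN overlapped NK only through the libraries of mice 1 and 2. The ILC1 mean was 1.35 ± 0.35 higher than NK (edgeR adjusted p = 0.0309), DP 1.59 ± 0.40 (0.0346) and FMSP 1.58 ± 0.40 (0.0371). The ILC1 call was lost without NK of mouse 4, 5 or 6 or DN of mouse 4 or 6, with adjusted p up to 0.131. The DP call was lost without NK of mouse 4, 5 or 6, DP of mouse 3 or 4, or DN of mouse 4 (up to 0.126). The FMSP call was lost without NK of mouse 4, 5 or 6, FMSP of mouse 3 or 4, DP of mouse 4, or DN of mouse 4 or 6 (up to 0.133). DN was 0.90 ± 0.42 higher (adjusted p = 0.302), and 1.42 ± 0.26 in the blocked fit (adjusted p = 0.0115).

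Il12rb2, the chain that recruits STAT4, held 134, 246, 285 and 240.1 CPM in NK libraries. DN libraries held 13.5, 95.1 and 145 CPM. FMSP libraries held 45.7, 135, 100.1 and 132 CPM, and DP libraries 39.9, 124, 101 and 130.3. The libraries of mice 1 to 3 were the lowest of their population in all 4 groups, and NK of mouse 1 lay below DN of mouse 6 and FMSP of mouse 4. Over all libraries the ILC1 mean was -1.25 ± 0.43 from NK (edgeR adjusted p = 0.127), which is not a call. In the blocked fit it was -1.13 ± 0.14 (adjusted p = 5.62e-04), and in mice 4 to 6 alone it was -1.10 ± 0.14 (3.21e-04). The block called DP (-1.15 ± 0.16, adjusted p = 0.00172), FMSP (-1.07 ± 0.16, 0.00289) and DN (-1.18 ± 0.20, 0.00818) as lower than NK. In mice 4 to 6, 8 of 8 ILC1 libraries held less than the NK library of the same mouse, at 0.351 to 0.602 of its level. Libraries of the same mouse share that NK library, so these values are not independent.

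Counts of Il12rb1 per count of Il12rb2 show this within a library, where scaling cancels. In mice 4 to 6 the ratio was 0.142, 0.178 and 0.120 in NK and between 0.773 and 1.10 in the 8 ILC1 libraries. The libraries of mice 1 to 3 had higher ratios, 0.601 in NK and from 5.49 to 6.11 in the 3 ILC1 libraries. The ILC1 ratios were thus above the NK ratios in both sets of mice. Because the 2 transcripts differ in length, the ratios are compared between libraries and not with 1.

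Both chains of the interleukin 18 receptor were lower in ILC1s. Il18rap, the accessory signalling chain, held 781, 1165, 1048 and 879.5 CPM in NK libraries, against 63.6, 381 and 345 in DN. FMSP libraries held 172, 158, 232 and 233 CPM, and DP libraries 101, 151, 167 and 210.5. All ILC1 libraries lay below all NK libraries. The ILC1 mean fell by 2.26 ± 0.31 on the log2 scale (edgeR adjusted p = 2.41e-04), DP by 2.62 ± 0.43 (0.00149) and FMSP by 2.28 ± 0.42 (0.00426), and these calls held without any 1 library. DN fell by 1.88 ± 0.46 (adjusted p = 0.0387), a call lost without any 1 of the 4 NK libraries, FMSP of mouse 4, 5 or 6, DP of mouse 4 or 5, or DN of mouse 6 (adjusted p up to 0.0942). It was made in the blocked fit (-1.49 ± 0.24, adjusted p = 0.00529).

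Il18r1, the ligand-binding chain, held 50.5, 203, 187 and 204 CPM in NK libraries and 9.87, 51.0 and 82.0 in DN. FMSP libraries held 5.87, 25.3, 38.8 and 47.8 CPM, and DP libraries 15.2, 18.7, 21.1 and 27.3. FMSP and DP lay below all NK values, and DN overlapped NK through the library of NK mouse 1, which was the lowest of its group. The ILC1 mean was -2.39 ± 0.48 from NK (edgeR adjusted p = 0.00570), a call that held without any 1 library. DP was -2.97 ± 0.67 from NK (0.0178; lost without DP of mouse 3, 4 or 5, with adjusted p up to 0.0630). FMSP was -2.45 ± 0.66 (adjusted p = 0.0503), called in the blocked fit at -2.68 ± 0.36 (0.00135) and without the 3 hepatocyte-high libraries at -3.37 ± 0.71 (0.0215). DN was -1.76 ± 0.71 (adjusted p = 0.232), called within mice 4 to 6 at -1.58 ± 0.29 (0.00650) and not in the blocked fit (-1.63 ± 0.45, 0.0642).

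**Figure D2:**
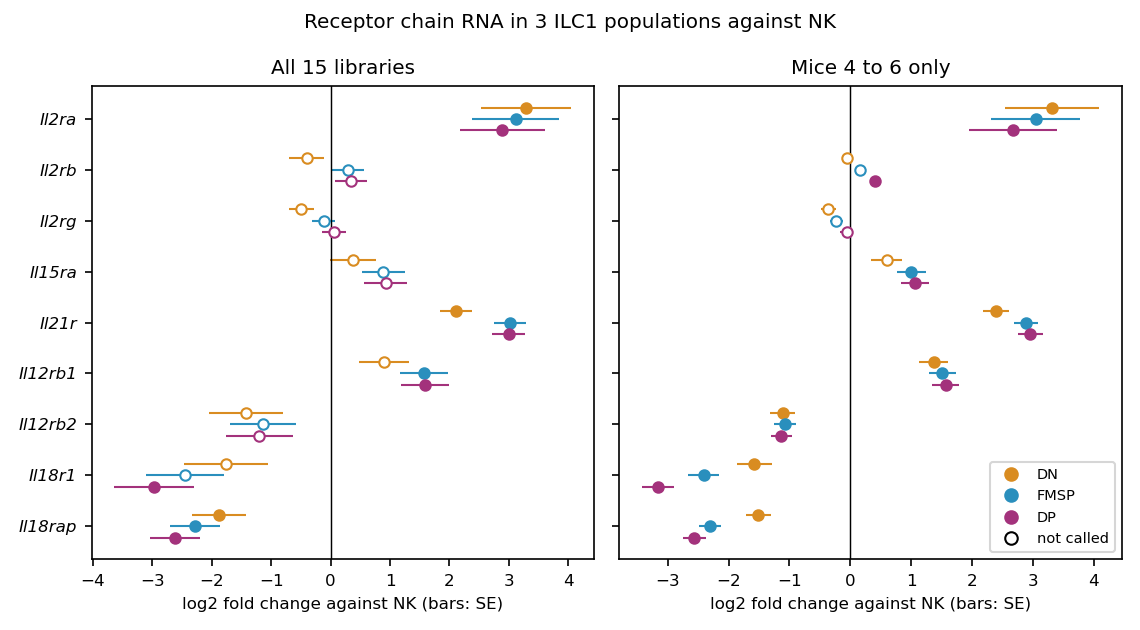
Log2 fold change against NK with its SE for the 9 genes in DN, FMSP and DP, from all 15 libraries (left) and from mice 4 to 6 alone (right), with open symbols where the edgeR test made no call. Within mice 4 to 6 the error bars of the interleukin 12 and 18 receptor chains are shorter, and Il12rb2 is called lower in all 3 populations at -1.07 to -1.13.

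Between ILC1 populations, 0 of 9 chains were called in DP against DN, FMSP against DN or DP against FMSP, by edgeR or by DESeq2. The background there was 0.0584% of all genes, 0.00584% and 0.00584%, all by edgeR. DESeq2 called 510 genes, 233 and 224, none of them receptor chains. At an unadjusted p below 0.05, Il2rb, Il2rg and Il21r passed in DP against DN, Il2rb and Il21r in FMSP against DN, and none in DP against FMSP. Of all 17124 genes, 1754 passed at that level in DP against DN, 1164 in FMSP against DN and 769 in DP against FMSP. In mice 4 to 6, Il18r1 was -1.58 ± 0.27 in DP against DN (adjusted p = 0.0509) and Il18rap -1.05 ± 0.19 (adjusted p = 0.0613), neither a call. Il2rb was 0.46 ± 0.08 higher there (adjusted p = 0.0628), also without a call.

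Other genes of these pathways were taken from lists by role. In the ILC1 mean against NK, 2.9% of all genes were called higher and 3.02% lower, and 12.7% either way in the blocked fit. Of the 8 ligand genes, 4 were tested and 1 was called in the ILC1 mean against NK. This was Il2, which lay between 0 and 0.206 CPM in the NK libraries. DN libraries held 3.46 to 25.6 CPM, FMSP libraries 7.55 to 39.4 and DP libraries 19.1 to 26.6 (edgeR adjusted p = 3.99e-04 for the ILC1 mean). T cells make this cytokine too. The summed T cell markers given with Il2ra were higher in every ILC1 library than in every NK library. Within the ILC1s, Cd3e averaged lower in DP than in DN or FMSP. The summed markers did not follow that order, with medians of 1023 CPM in DP, 929 in DN and 1280 in FMSP. The part of T cell RNA in the Il2 values was not tested. Il15 was 12.5 ± 2.76 CPM (SD, n = 4) in NK and 4.07 ± 0.0934 (n = 3) in DN, with a log2 difference of -1.62 ± 0.52 that was not called (adjusted p = 0.125). Il18bp, the decoy that binds interleukin 18, was 2.08 ± 0.79 higher in the ILC1 mean and not called (adjusted p = 0.175).

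Among 20 other cytokine receptor genes tested, the blocked fit called 5 higher and 4 lower (12.7% of all genes either way). Without the block, 3 were called higher and 4 lower in the ILC1 mean (2.9% and 3.02% of all genes). Il7r, the interleukin 7 receptor chain that also pairs with the common chain, rose by 4.59 ± 0.62, from 4.77 ± 2.04 CPM in NK to 109 ± 57.7 in DP (edgeR adjusted p = 2.37e-04). Il27ra rose by 0.92 ± 0.21 (0.0157). Ifngr1, the interferon-gamma receptor chain, fell by 1.68 ± 0.12 (adjusted p = 1.12e-06), and Il10ra, the interleukin 10 receptor chain, by 1.46 ± 0.25 (0.00154). Il4ra, the interleukin 4 receptor chain, was not called over all libraries (0.92 ± 0.45, adjusted p = 0.318) and was called in the blocked fit at 1.18 ± 0.13 (2.94e-04). ILC3s also express Il7r. Of 7 ILC3 markers, Il22 and Il17a were at 0 in every library of each group, and the sum was 10.5 to 22.5 CPM in NK and 239 to 804 in ILC1 libraries, whose part in the Il7r result was not tested.

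Of 18 signalling genes, 0 were called higher and 2 lower (2.9% and 3.02% of all genes). Jak1, the kinase bound by Il2rb and by the private chain of interleukin 21, was at 1756 ± 139 CPM in NK and 725 ± 179 in DN, and the ILC1 mean was -1.21 ± 0.13 from NK (edgeR adjusted p = 3.23e-05). Tyk2, the kinase bound by Il12rb1, was -1.24 ± 0.25 (0.00648). The blocked fit called 4 higher and 5 lower (12.7% of all genes either way). Jak2 at 0.89 ± 0.14 (adjusted p = 0.00265) and Jak3 at 0.50 ± 0.10 (0.0108) were then higher, and Stat4 at -0.35 ± 0.07 (0.00988) lower. Stat5a was -0.74 ± 0.25 without a call (adjusted p = 0.107). The median of the 18 was -0.30, against 0.08 for all genes.

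Of 9 feedback genes, the blocked fit called 4 higher and 1 lower (12.7% of all genes either way). Without the block, 3 were called higher and 0 lower (2.9% and 3.02% of all genes). All 3 encode cytokine-induced inhibitors of JAK and STAT signalling. Socs2 rose by 4.30 ± 0.39 (edgeR adjusted p = 5.75e-06), Cish by 3.41 ± 0.29 (4.54e-06) and Socs1 by 1.66 ± 0.17 (2.05e-05). Each was called in DP, FMSP and DN taken singly. Cish ranged from 13.1 to 26.1 CPM in NK and from 86.2 to 204 in DN, and the 8 FMSP and DP libraries all held 217 CPM or more. Socs3 was 0.10 ± 0.26 from NK (adjusted p = 0.918).

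Of 12 survival and effector genes, 1 was called higher and 2 lower (2.9% and 3.02% of all genes). Pim2, a survival kinase, rose by 0.91 ± 0.23 (edgeR adjusted p = 0.0309). Prf1, which encodes perforin, was -2.60 ± 0.23 (5.36e-06) and the survival gene Mcl1 -0.46 ± 0.11 (0.0240). Bcl2 was 0.81 ± 0.47 higher without a call (adjusted p = 0.425), and 0.88 ± 0.07 in the blocked fit (6.25e-05). Ifng was 0.65 ± 0.37 over all libraries (adjusted p = 0.416) and 0.75 ± 0.11 in the blocked fit (0.00164).

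**Figure D3:**
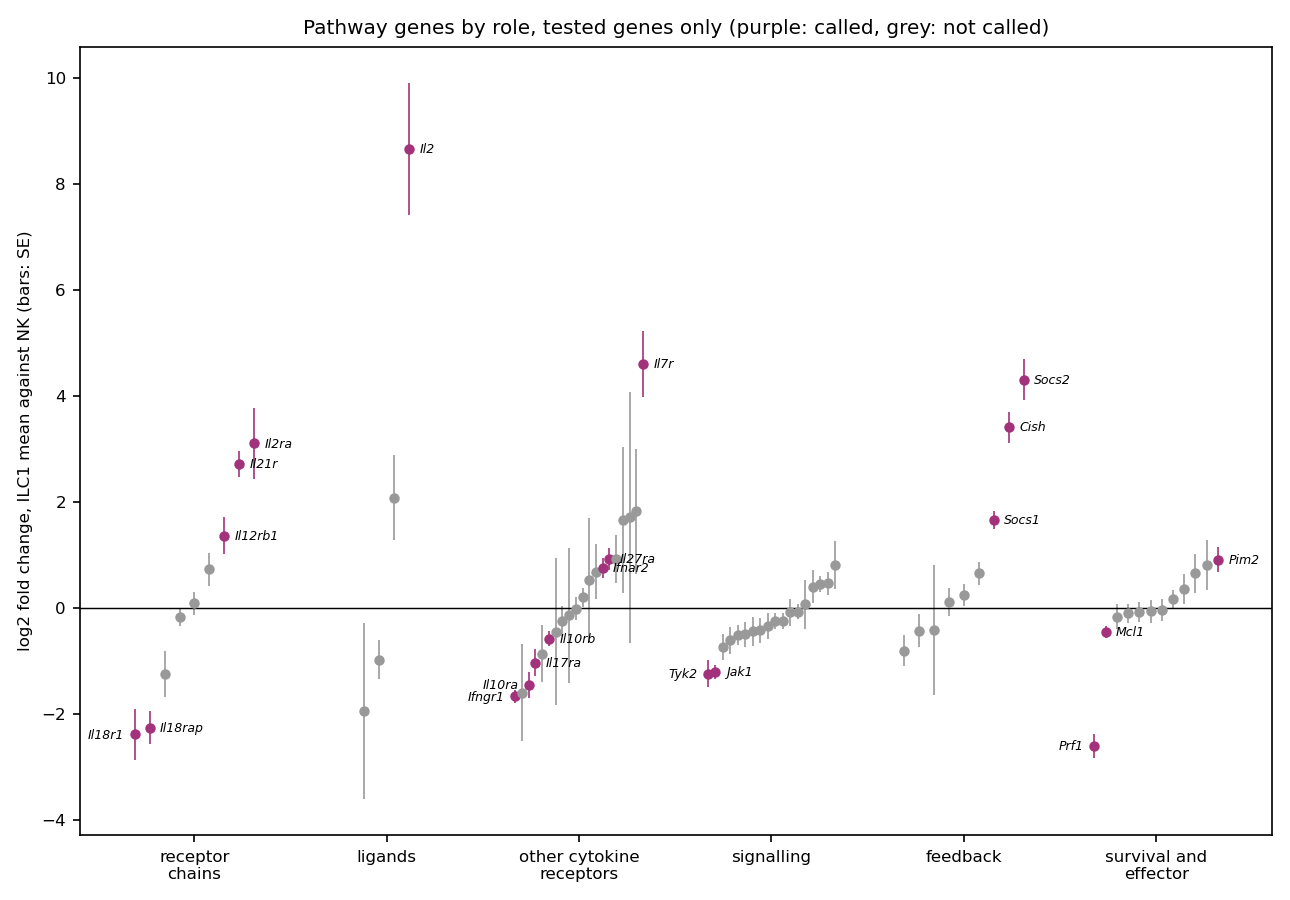
Log2 fold change of the ILC1 mean against NK with its SE for each tested gene of the receptor chains and of 5 pathway lists, with called genes named. Socs2, Cish and Socs1 stand above the other feedback genes, at 1.66 to 4.30. The fitted value of Il2 rests on NK libraries at or near 0 and depends on the prior count.

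The genes whose log2 level followed each chain most closely over the 15 libraries were found among 9145 genes with a mean of at least 10 CPM. For Il21r these were Gimap7 (Pearson r = 0.986) and Cish (0.985), and for Il18rap the uncharacterised A430078G23Rik (0.977) and Gnptab (0.959). Il2rb was nearest to Cd37 (0.966) and Itgax (0.958), Il12rb1 to Armc7 (0.975) and Rftn1 (0.966), and Il12rb2 to Ugcg (0.970) and Nfatc3 (0.960). Il18r1 was nearest to Itga4 (0.962), Il2rg to Med11 (0.942), Il2ra to Tnfrsf25 (0.934) and Il15ra to Ifi213 (0.901). The points share populations, animals and the division between mice 1 to 3 and mice 4 to 6, so these values are descriptions.

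Marker lists were used to check the labels. The 5 genes of group 1 innate lymphoid cells summed to 5350.4 CPM or more in every library, and the sums were higher in NK. They were 12541 to 17557 CPM in NK, 5350.4 to 7307 in DN, 7202 to 11753 in FMSP and 8461 to 12452 in DP. In the ILC1 mean against NK, edgeR called 3 of the 5 lower and 0 higher (3.02% and 2.9% of all genes). The 5 NK markers, Eomes among them, summed to 2951 to 4943 CPM in NK libraries and to 70.9 to 608 in ILC1 libraries, DN being the highest of these. This list includes S1pr5, the gene of the reporter carried by the sorted NK cells, so it is in part no independent check. The 5 ILC1 markers summed to 15.5 to 36.3 CPM in NK and 1011 to 2263 in the ILC1 libraries. Kupffer and myeloid markers were highest, in every population, in the libraries of mice 1 to 3: 277 CPM (NK), 1585 (DN), 637 (FMSP) and 743 (DP). In mice 4 to 6 they lay between 43.6 and 377 CPM. In the libraries of mice 1 to 3, Il18r1 and Il12rb2 were the lowest of each population, and Il18rap was so except in FMSP. The part of Kupffer and myeloid RNA in these values was not tested.

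In chromatin, ILC1s were compared with NK cells within the liver and, across organs, as salivary gland ILC1s against spleen NK cells. In the second comparison organ and population cannot be told apart. Peak totals were 5609587 to 9957335 counts in liver libraries and 11101944 to 26944890 in spleen and salivary gland libraries, so depth differed with organ. Peak positions are those deposited (mm10), and the named gene and type of a peak are the authors' own.

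Of the 38 receptor chain peaks, 12 were called in liver ILC1s against liver NK cells, 9 higher and 3 lower (edgeR adjusted p below 0.05), where 9.83% of all peaks were higher and 8.85% lower. In salivary gland ILC1s against spleen NK cells 14 were higher and 9 lower (background 22% and 26.2%), and for both ILC1 groups against both NK groups 14 were higher and 8 lower (21% and 23.1%). Between organs, 8 were higher and 8 lower in salivary gland than liver ILC1s (22.8% and 25.9%), and 11 higher and 4 lower in spleen than liver NK cells (20.9% and 19.8%). Scaling by library totals alone, without TMM, turned this last balance to 2 higher and 10 lower. The median log2 difference of all peaks then went from -0.11 to -0.49, and that of the 38 from 0.27 to -0.12. The liver ILC1 split became 8 higher and 5 lower, with the median of all peaks at -0.10 in place of 0.00. The difference between the 2 ILC1 comparisons was called at 9 peaks, 4 upward and 5 downward (13.5% and 16.6%). The liver count was 6 without liver NK library 1 and 5 without liver ILC1 library 2. Either omission ended the liver calls of the Il2rg promoter, the Il2rb and Il2ra exon peaks, the Il2ra intron peak at chr2:11653046-11654075 and the Il21r peak at chr7:125635087-125637144 (adjusted p up to 0.529). By type the 38 comprised 10 promoter, 18 intron, 6 intergenic and 4 exon peaks.

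**Figure D4:**
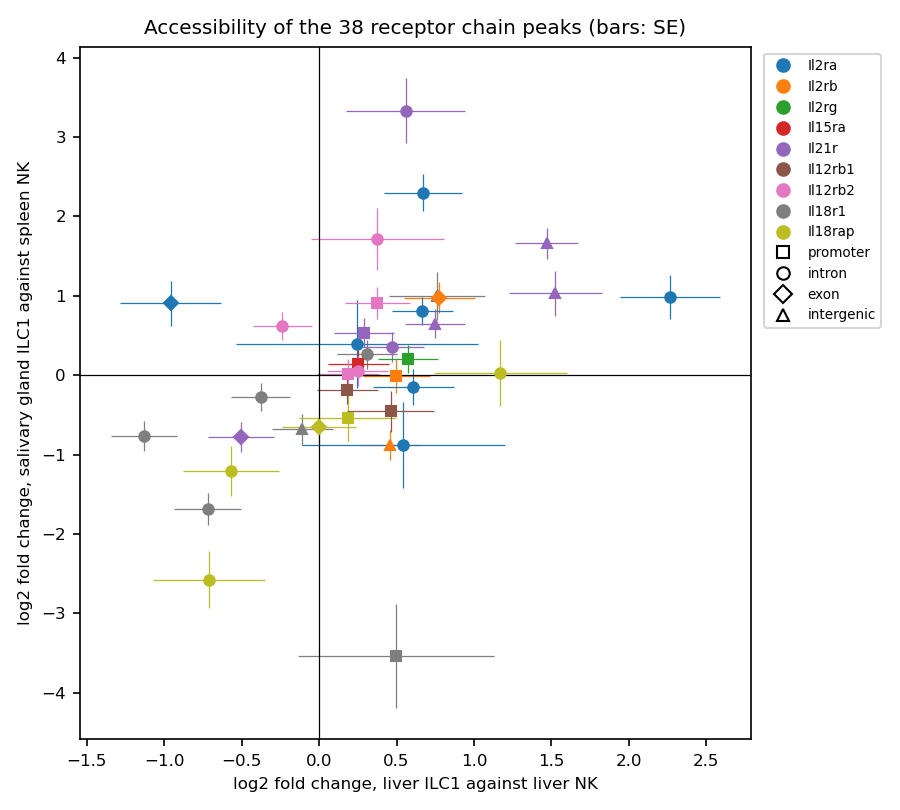
Each point is 1 of the 38 receptor chain peaks, with its log2 fold change in liver ILC1s against liver NK cells on the x axis and in salivary gland ILC1s against spleen NK cells on the y axis, bars showing the SE. Il21r and Il2ra peaks reach the upper right, and Il18r1 and Il18rap intron peaks the lower left.

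Il21r had 7 peaks, and 6 were called higher and 1 lower in both ILC1 groups against both NK groups (21% and 23.1% of all peaks). The intergenic peak at chr7:125592615-125594484, centred at -9703 bases from the gene start, held 26.1 and 36.0 CPM in liver NK and 74.8 and 96.1 in liver ILC1. It held 31.5 and 28.6 CPM in spleen NK and 90.2 and 99.8 in salivary gland ILC1. All ILC1 libraries lay above all NK libraries, with a log2 difference of 1.47 ± 0.20 in liver (edgeR adjusted p = 3.90e-11) and 1.66 ± 0.20 across organs (4.89e-16), also without any 1 library. A smaller peak at chr7:125600430-125601119, centred at -2478 bases, was higher by 1.52 ± 0.30 in liver (adjusted p = 1.33e-05) and 1.03 ± 0.28 across organs (9.54e-04, or 0.224 without salivary gland library 2). The intron peak at chr7:125617961-125618642 held 0.818 and 0.879 CPM in spleen NK and 6.77 and 10.3 in salivary gland ILC1 (3.33 ± 0.41, adjusted p = 9.03e-15), with 0.56 ± 0.38 in liver. The promoter peak, chr7:125602915-125603902, was called across organs (0.54 ± 0.18, adjusted p = 0.00723, lost without any 1 of those 4 libraries) and not in liver (0.29 ± 0.20). The exon peak at chr7:125630028-125630961 was lower across organs by -0.78 ± 0.19 (adjusted p = 1.13e-04) and -0.50 ± 0.21 in liver without a call (0.0779).

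Il2ra had 7 peaks, none typed as promoter, and 3 intron peaks were called higher in both comparisons. Of all peaks, 9.83% were higher in liver and 22% across organs. At chr2:11657371-11658088, 14937 bases into the gene, liver NK held 3.65 and 2.25 CPM and liver ILC1 10.9 and 17.7. Spleen NK held 5.16 and 6.06 CPM there, and salivary gland ILC1 11.4 and 10.7. All ILC1 libraries were again above all NK libraries, by 2.26 ± 0.32 in liver (edgeR adjusted p = 2.90e-10) and 0.98 ± 0.27 across organs (0.00113, or 0.0559 without spleen NK library 1). At chr2:11651108-11652074 the difference was larger across organs, at 2.30 ± 0.23, than in liver, at 0.67 ± 0.25 (adjusted p = 0.0420). That liver call was lost without any 1 library except liver NK library 1 (up to 0.299). A further intron peak, chr2:11653046-11654075, was higher by 0.66 ± 0.20 in liver and 0.81 ± 0.18 across organs. The exon peak, chr2:11692685-11693668, was called lower in liver and higher across organs. Its liver call was lost without liver NK library 1 or liver ILC1 library 2 (adjusted p up to 0.429). Its call across organs was lost without spleen NK library 1 (0.100).

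**Figure D5:**
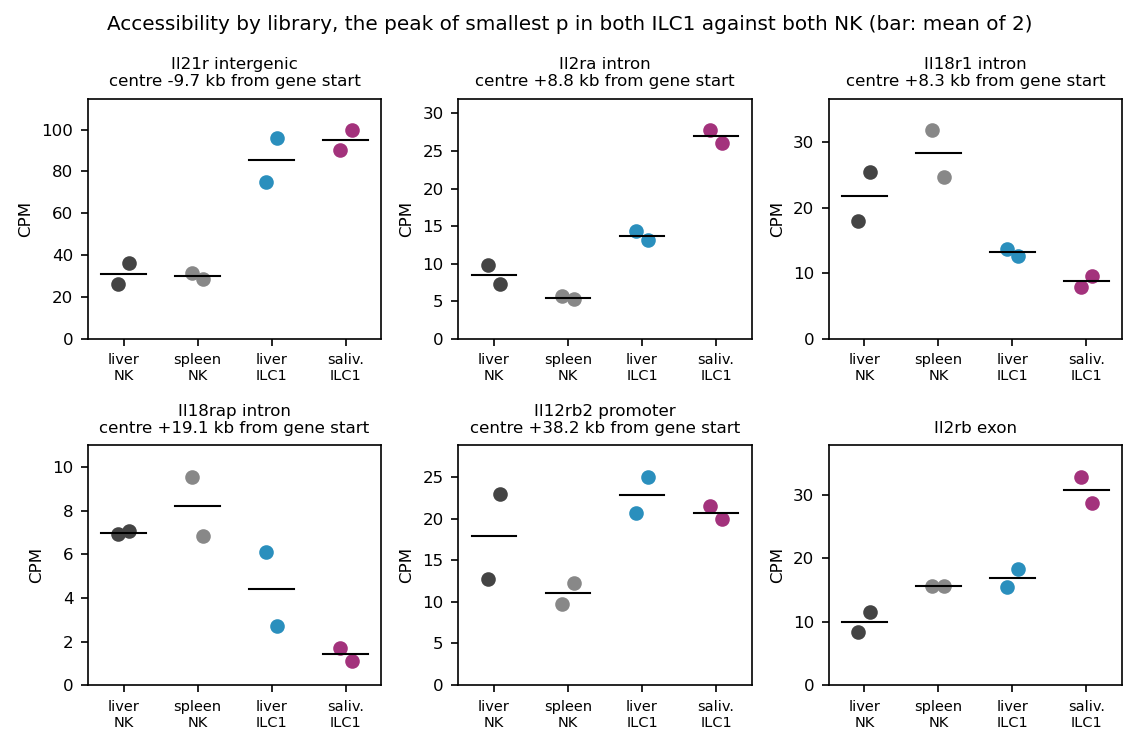
CPM of single ATAC libraries (points) and their mean (bar) at 1 peak for each of 6 genes, the one of smallest p for both ILC1 groups against both NK groups, in liver NK, spleen NK, liver ILC1 and salivary gland ILC1. The Il21r peak shows all 4 ILC1 libraries at 74.8 CPM or more and all 4 NK libraries at 36.0 or less.

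Of 7 Il18r1 peaks, 2 were called lower and 0 higher in liver ILC1s (8.85% and 9.83% of all peaks). Across organs, 4 were lower and 1 higher (26.2% and 22%). The intron peak at chr1:40473487-40474230 held 18.0 and 25.4 CPM in liver NK, 13.6 and 12.7 in liver ILC1, 31.8 and 24.7 in spleen NK, and 7.94 and 9.51 in salivary gland ILC1. ILC1 libraries lay below NK libraries, by -0.72 ± 0.22 in liver (edgeR adjusted p = 0.00892, or up to 0.261 without liver NK library 2 or liver ILC1 library 2) and -1.69 ± 0.20 across organs. The intron peak at chr1:40469672-40470540 fell by 1.13 ± 0.21 in liver (adjusted p = 3.62e-06) and by 0.77 ± 0.19 across organs (1.76e-04). The peak over the promoter stretch shown for Il18r1 carries the name of the neighbouring gene Il1rl1 in the file and is not among the 38. At chr1:40465295-40466206, it was -0.43 ± 0.24 in liver (adjusted p = 0.203) and -1.01 ± 0.24 across organs (7.37e-05).

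Of 5 Il18rap peaks, 1 was called higher in liver ILC1s (9.83% of all peaks) and 3 lower across organs (26.2%). At the intron peak chr1:40534133-40534772 the salivary gland libraries held 1.71 and 1.11 CPM against 9.58 and 6.84 in spleen NK, a difference of -2.58 ± 0.36 (edgeR adjusted p = 1.23e-11). In liver the same peak was -0.71 ± 0.36 (adjusted p = 0.161), with 6.13 and 2.73 CPM in ILC1 against 6.92 and 7.08 in NK. The 1 peak higher in liver, chr1:40544510-40545132, rose by 1.17 ± 0.43 (adjusted p = 0.0371), a call lost without any 1 of the 4 liver libraries (up to 0.248), with 0.03 ± 0.42 across organs. The promoter peak, chr1:40516126-40516824, was not called in either comparison.

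Of 5 Il12rb2 peaks, 0 were called in liver (9.83% of all peaks higher and 8.85% lower). Across organs, 3 were higher and 0 lower (22% and 26.2%). The promoter peak over the stretch shown, chr6:67375122-67376679, held 43.3 and 56.8 CPM in liver NK and 48.8 and 64.4 in liver ILC1, which overlapped (0.19 ± 0.20, edgeR adjusted p = 0.568), and the difference across organs was 0.02 ± 0.19. The intron peak chr6:67322282-67322996 was higher by 1.71 ± 0.39 across organs (0.38 ± 0.43 in liver), at 1.96 and 1.47 CPM in spleen NK and 6.64 and 4.82 in salivary gland ILC1. Il12rb1 had 2 promoter peaks and Il15ra 1, and none was called in liver, across organs or for both groups. The Il12rb1 peaks differed by 0.18 ± 0.20 and 0.46 ± 0.28 in liver.

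The Il2rb exon peak chr15:78480878-78481791 was higher by 0.78 ± 0.23 in liver ILC1s (edgeR adjusted p = 0.00674) and by 0.98 ± 0.19 across organs. Its intergenic peak chr15:78501735-78503661 was lower across organs (-0.88 ± 0.19) and 0.46 ± 0.19 higher in liver without a call (adjusted p = 0.0681). The Il2rb promoter peak was not called in either. The Il2rg promoter peak, chrX:101267631-101269145, was higher in liver ILC1s by 0.57 ± 0.19 (adjusted p = 0.0217), at 22.3 and 27.0 CPM in NK and 30.4 and 42.3 in ILC1, and not across organs (0.20 ± 0.18).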

How the data were processed

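RNA-seq of 15 sorted liver libraries and ATAC-seq of 8 libraries were used. The authors deposited a table of expected counts per gene for RNA (Salmon 1.6, DESeq2 and mm10 per the submitters' processing notes), whole numbers in the file, and ATAC as read counts per peak (Bowtie2, SAMtools, MACS2). Whether gene length entered the RNA counts is not stated, so levels are not compared between genes.

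edgeR 4.0.16 in R 4.3.3 (filterByExpr minimum count 10, TMM, robust quasi-likelihood fits, 1 mean per group over all libraries of an assay) tested 17124 genes and 51292 peaks, with 11 and 4 residual degrees of freedom. P-values are 2-sided and Benjamini-Hochberg adjusted per comparison. The fits were also run on simulated counts. These were drawn independently for each library, without shared mice or a split of mice 1 to 3 from mice 4 to 6. That run therefore cannot show how the fits behave under either. Alternatives were DESeq2 1.42.0, other scalings, no filter, pairs of groups alone, each library left out, a mouse block, mice 4 to 6 alone and no hepatocyte-high libraries. A term for mice 1 to 3 was added after the data were seen.

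By the sample titles, RNA libraries that share a mouse number come from the same animal. Deviations from group means correlated with a median r of 0.229 within a mouse (0.0902 to 0.698, 16 pairs). Between mice the median was 0.00107 (-0.448 to 0.644, 68 pairs), and the 2 ranges overlapped. Mice 1 and 2 gave 1 library each, which a block fits exactly. Members and gene lists were chosen with earlier results of these data known. All receptor chains are named in every comparison. Of peaks, up to 3 called ones of smallest p per gene and comparison and the leading promoter peak are eligible to be named, some with their value in the other comparison. Of other lists, up to 4 called genes of smallest p per comparison are named, and genes not called are given with values. The date-like entries in place of 26 symbols held 0.293% of RNA counts and stayed unnamed. ATAC numbers 1 and 2 are labelled as mouse replicates. All counting errors rest on reads without molecular identifiers.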

Additional observations from a re-analysis of the deposited data

Results flagged for a closer look

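In 27 groups of 4 libraries (9 genes in NK, FMSP and DP), 1 library lay apart by Dixon's criterion in 4, where chance gives about 1 in 20. Il2rb was 5335 CPM in NK of mouse 1 against 3299.9 to 3357 in the others, and 7705 in FMSP of mouse 3 against 3289 to 4014. Il12rb1 was 244 CPM in DP of mouse 3 against 108 to 124. Il18r1 was 50.5 CPM in NK of mouse 1 against 187 to 204. All 4 libraries were from mice 1 to 3.

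At 9 receptor chain peaks the ILC1 difference across organs (salivary gland against spleen) was unlike that within the liver by the edgeR interaction term. For Il18r1 the peaks were chr1:40466389-40466597, with an interaction of -4.03 (adjusted p = 1.62e-04, all values at 3.52 CPM or less), and chr1:40473487-40474230, at -0.97 (0.00649). For Il18rap it was chr1:40534133-40534772, at -1.87 (0.00211), and for Il2rb chr15:78501735-78503661, at -1.34 (1.09e-05). For Il2ra the values were 1.63 at chr2:11651108-11652074 (4.33e-05), -1.28 at chr2:11657371-11658088 (0.0140) and 1.86 at chr2:11692685-11693668 (2.32e-04). For Il12rb2 chr6:67366897-67368614 gave 0.86 (0.00673), and for Il21r chr7:125617961-125618642 gave 2.77 (2.80e-05). The fitted difference had opposite signs in liver and across organs at 4 of the 9. At the Il2ra exon peak both were called, at -0.96 ± 0.33 (adjusted p up to 0.429 without 1 library) and 0.90 ± 0.29 (up to 0.100). At the other 3 the liver value was not called: 0.50 ± 0.63 against -3.53 ± 0.65 at chr1:40466389-40466597 (Il18r1), 0.46 ± 0.19 against -0.88 ± 0.19 at Il2rb, and -0.24 ± 0.19 against 0.62 ± 0.18 at Il12rb2. The difference was not called without 1 of 2 libraries at the second Il18r1 peak (liver NK 1, spleen NK 1) and at Il2ra chr2:11657371-11658088 (liver NK 2, liver ILC1 2), without liver ILC1 library 1 at Il18rap, and without salivary gland library 2 at Il12rb2. Organ and depth changed together in this contrast and cannot be told apart.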

How the results depend on the processing

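No called value changed sign under any alternative run. The number of receptor chains called in the ILC1 mean against NK was 5, and 7 with the mouse as a block. In DP against NK it was 5, from 3 to 5 with 1 library left out, and 8 in mice 4 to 6. In FMSP against NK it was 4, with 7 under the mouse block, 2 with only the 2 groups, 2 to 5 with 1 library left out, 7 in mice 4 to 6 and 7 with the term for mice 1 to 3. In DN against NK it was 3, with 5 under the block, 1 with only the 2 groups, 1 to 3 with 1 library left out, 6 in mice 4 to 6 and 6 with the term. All genes called rose as well: in mice 4 to 6 from 699 to 1662 in DP, 697 to 1620 in FMSP and 512 to 1458 in DN, in the blocked fit to 1647, 1682 and 1191, and with the term to 1461, 1499 and 1498. For peaks, liver ILC1 against liver NK gave 12, and 5 to 13 with 1 library left out, and spleen against liver NK gave 15, and 7 to 16. Library totals alone gave 12 in spleen against liver NK, 2 higher and 10 lower in place of 11 and 4, and in DN against NK 2 higher and 0 lower chains in place of 2 and 1, where the median log2 difference of all genes moved from 0.17 to 0.37. The ATAC replicate numbers mark no stated shared source (same-number median r = 0.00711, 12 pairs), and a replicate block gave 12, 23, 22, 16, 16 and 10 calls in place of 12, 23, 22, 16, 15 and 9. The causes were not tested. Over the 9 genes in all RNA comparisons and alternatives, 351 calls were kept, 52 lost and 35 gained, and 1065 values were called in neither fit. Over the 38 peaks, 1202 calls were kept, 124 lost and 51 gained, and 1732 values were called in neither. With 2 libraries per ATAC group and 3 or 4 per RNA group, differences of small size were not detectable.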

Other observations

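A pair of further peaks overlap the span of a receptor chain gene but carry another gene's name. At chr6:67288321-67289665, inside Il12rb2 and named for Serbp1, salivary gland ILC1 (mean 7.43 CPM) exceeded spleen NK (3.47) by 1.07 ± 0.32 (edgeR adjusted p = 0.00233), with 0.51 ± 0.33 in liver (0.290). At chr15:78510022-78513149, over an end of the annotated span of Il2rb and named for C1qtnf6, liver ILC1 (139) and liver NK (97.8) differed by 0.51 ± 0.21 without a call (0.0738).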
